A study of Mus musculus with 8 samples.

Results

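The collagen genes of the mouse are described here in liver RNA. They were taken by symbol, as every gene named Col, a number, the letter a and a number, and the rule used no measured value. It found 44 genes among the 52636 that the files list. These genes were chosen as a group with earlier results of these data known. By the structure of their products, 11 are fibrillar, 6 belong to basement membranes, 9 are fibril-associated (FACIT), 6 form beaded filaments and 3 form networks. A further 4 are transmembrane, 2 are multiplexins, 1 makes anchoring fibrils and 2 fall outside these classes.

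Whole liver of C57BL/6 mice aged 8 weeks was profiled by RNA sequencing. Samples labelled WT (CTCF fl/fl Albcre-, n = 4) carried floxed Ctcf without Cre, and samples labelled cKO (CTCF fl/fl Albcre+, n = 4) carried the same floxed alleles with Cre under the albumin promoter, a promoter of hepatocytes. CTCF is a DNA-binding zinc finger protein of chromatin folding. The comparison is of collagen transcripts between these genotypes. A group with Cre and unfloxed Ctcf was not analysed here, and Cre itself cannot be told apart from the deletion. The labels do not say that each sample came from a separate mouse, so the p values reflect spread among the samples, which may be technical.

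Collagens are proteins of the extracellular matrix whose chains wind around each other into a helix, and the classes differ in what the helices build. Fibrillar collagens make the cables of connective tissue, type IV collagens make the sheet of basement membranes, and FACIT collagens sit on the surface of fibrils. In the liver, stellate cells and portal fibroblasts are the best known producers of fibrillar collagen, sinusoidal endothelial cells contribute type IV collagen, and hepatocytes are a known source of type XVIII collagen.

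Deposited expected counts summed to between 43.9 M and 57.3 M per library, with means of 46.1 ± 2.93 M (WT) and 52.4 ± 3.29 M (cKO; ± SD, n = 4 per genotype). Levels are in CPM, that is counts relative to library size after TMM scaling, unless TPM, the length-corrected unit, is named. A count of 0 in a library allowed up to 0.0511 to 0.0708 CPM, depending on its total, which covers counting error only. Alb, the defining hepatocyte transcript, averaged 59625 (WT) and 65920 CPM (cKO). The targeted gene Ctcf stood at 16.8, 16.9, 16.3 and 16.0 CPM in the WT libraries and at 12.0, 13.1, 12.7 and 10.9 CPM in the cKO libraries. Every cKO library was below every WT library, with a log2 change of -0.44 ± 0.08 (SE) and an edgeR adjusted p of 0.00202. On the TPM scale the Ctcf call was lost, with an adjusted p of up to 0.161. The targeted transcript was thus present in every cKO library.

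Most collagen transcripts that differed between the genotypes were higher in cKO. Of the 44 genes, 29 had enough counts to be tested. In edgeR's quasi-likelihood test with Benjamini-Hochberg adjustment over 15562 genes at 0.05, 13 collagen genes rose in cKO, 3 fell and 13 did not pass. The 16 called genes are 55.2% of the tested collagens, against 30.4% of all tested genes. All tested genes were called higher in 15.3% and lower in 15.1%. The median log2 change was 0.51 over the tested collagens and -0.01 over all tested genes. The 13 rises were Col1a1, Col1a2, Col3a1, Col5a1, Col5a2, Col4a1, Col4a2, Col14a1, Col16a1, Col6a1, Col6a2, Col6a3 and Col13a1. The 3 falls were Col27a1, Col7a1 and Col18a1. Markers of stellate cells summed to 265 to 292 CPM in WT and 468 to 609 CPM in cKO. Most of this came from Ecm1 (means of 127 and 194 CPM) and Dcn (means of 65.2 and 194 CPM). Markers of portal fibroblasts summed to 35.0 to 55.7 CPM in WT and 52.7 to 69.2 CPM in cKO. The part of either list in the collagen rises was not tested. In bulk tissue, more cells of a type and more RNA per cell cannot be told apart. Genotypes did not overlap in CPM for 15 of the 29, against 30.6% of all tested genes. Scaling to library size alone called 23.3% of all genes higher and 8.58% lower, with 14 collagens higher and 2 lower.

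**Figure D1:**
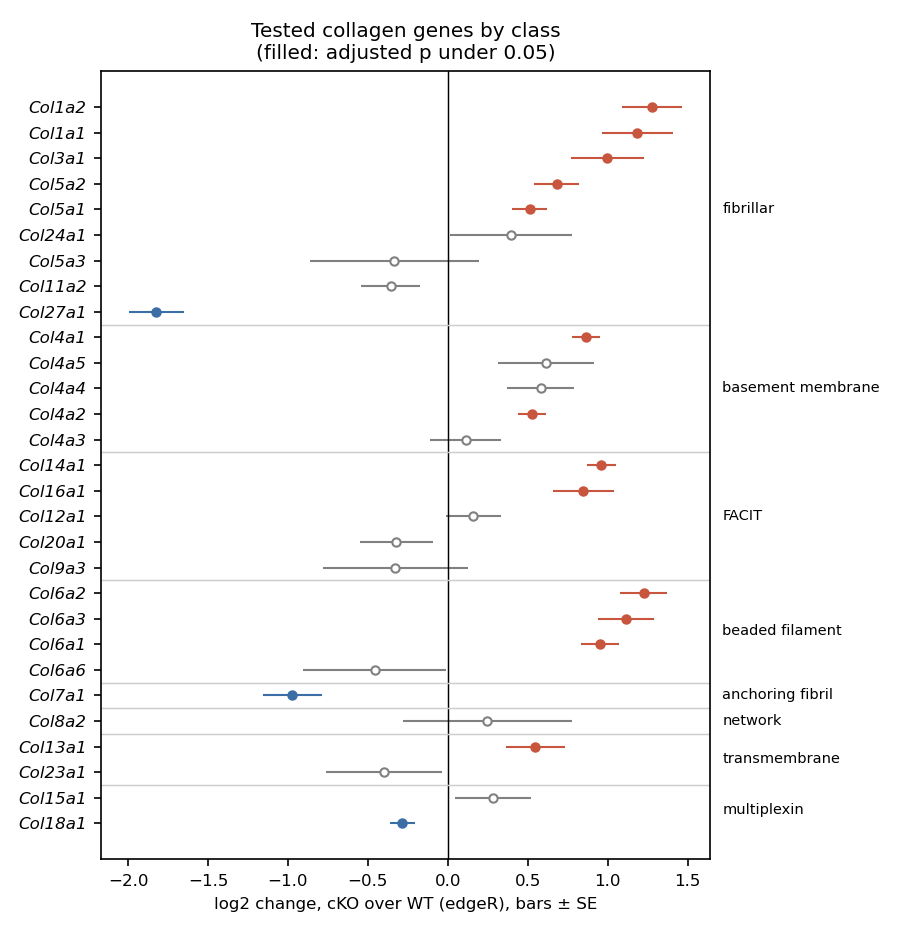
Log2 change in cKO over WT (x axis) with its standard error for each of the 29 tested collagen genes, grouped by class, filled where the edgeR adjusted p was under 0.05. Filled points lie right of 0 for 13 genes and left of 0 for Col27a1, Col7a1 and Col18a1.

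Promoter sequence is shown for 5 called genes. Col27a1, Col5a1 and Col13a1 are shown as examples of windows with a match to a core of the CTCF motif. Windows of Col6a2 and Col4a2, which were also called, held such a match too and are not shown. Col1a2 and Col3a1 are shown because they encode chains of the main fibrils and both rose. RefSeq windows of GRCm38.p6, from 250 bases before to 50 bases after a start, matched 35 of the 44 genes in 38 windows. A core of the CTCF motif, which reads CC, 4 free bases, GG, 1 free base and GGC, was searched on both strands, as were all motifs here. It was found in 6 of 38 collagen windows and in 11.1% of all 32851 windows of that length. The 6 windows belong to Col27a1, Col5a1, Col13a1, Col6a2, Col4a2 and Col6a4. A match stood in 4 of the 11 windows of genes that rose. Among the genes that rose, Col1a1, Col14a1 and Col5a2 had no window and Col6a2 had more than 1. Whether a match and a change go together was not tested. The motif GGGCGG was found in 23 collagen windows and in 35.7% of all windows searched. CCAAT was found in 13 and in 37.4%, and TATAAA in 5 and in 13.6%. Matches of different motifs may overlap, and a match describes letters and does not show binding. In the stretches below, 5′ to 3′ on the strand of the gene, capitals mark matches to the CTCF core, GGGCGG or TATAAA.
Col27a1, chr4:63215262-63215381, plus strand, CTCF core and GGGCGG: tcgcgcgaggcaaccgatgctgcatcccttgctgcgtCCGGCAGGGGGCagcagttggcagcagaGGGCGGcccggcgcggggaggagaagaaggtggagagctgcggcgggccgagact
Col5a1, chr2:27886235-27886354, plus strand, CTCF core: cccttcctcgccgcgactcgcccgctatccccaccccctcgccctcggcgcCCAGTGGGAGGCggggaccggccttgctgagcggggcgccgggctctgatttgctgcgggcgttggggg
Col13a1, chr10:61979229-61979338, minus strand, CTCF core: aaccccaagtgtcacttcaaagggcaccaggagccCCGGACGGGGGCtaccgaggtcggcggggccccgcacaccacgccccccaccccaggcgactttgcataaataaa
Col1a2, chr6:4505368-4505487, plus strand, GGGCGG: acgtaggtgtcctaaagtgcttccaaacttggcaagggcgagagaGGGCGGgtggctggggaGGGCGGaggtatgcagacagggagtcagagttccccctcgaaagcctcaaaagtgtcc
Col3a1, chr1:45311388-45311507, plus strand, TATAAA: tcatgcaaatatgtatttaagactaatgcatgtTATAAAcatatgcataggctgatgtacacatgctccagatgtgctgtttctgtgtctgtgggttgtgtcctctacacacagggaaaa
The first base of the CTCF core match lay 113 bases before the start of the window in use in Col27a1. It lay 139 bases before it in Col5a1 and 195 bases before it in Col13a1. The window of Col13a1 held another match 103 bases before the start. These starts can differ from the ends of the gene spans. The Col27a1 match, at chr4:63215299-63215310, lies inside the gene span of chr4:63214009-63334991. The other Col13a1 match, at chr10:61979200-61979211, crosses the end of its gene span at 61979206.

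Among the fibrillar genes, 9 of 11 were tested. In cKO 5 rose, 1 fell and 3 did not pass, with a median log2 change of 0.51. Col1a1 and Col1a2 (chr11:94936224-94953042 and chr6:4505618-4541543) encode the chains of type I collagen, the main fibril of scar and bone. Col1a1 stood at 4.20, 5.59, 3.25 and 3.16 CPM in WT replicates 1 to 4 and at 12.4, 6.94, 9.62 and 7.90 CPM in cKO replicates 1 to 4. All 4 cKO libraries were above all WT libraries, by 2.27-fold (log2 change 1.18 ± 0.22 SE, edgeR adjusted p = 0.00394). Col1a2 stood at 7.59, 12.2, 7.33 and 6.95 CPM in WT and at 22.8, 16.1, 22.8 and 20.9 CPM in cKO. Here WT replicate 2 was the highest of its group and still below the lowest cKO library. The rise was 2.43-fold (log2 change 1.28 ± 0.19 SE, edgeR adjusted p = 0.00146).

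Col3a1 (chr1:45311538-45349706) encodes type III collagen, which forms fibrils together with type I. It stood at 8.81, 15.7, 8.59 and 7.54 CPM in WT and at 24.5, 17.2, 19.1 and 20.5 CPM in cKO. WT replicate 2 came close to cKO replicate 2 without reaching it. The log2 change was 1.00 ± 0.23 (SE; edgeR adjusted p = 0.0133), and 1.29 without WT replicate 2. Col5a1 and Col5a2 encode type V chains, which start fibrils and limit their width. Col5a1 stood at 7.73, 6.72, 6.32 and 6.13 CPM in WT and at 10.4, 8.26, 10.5 and 9.23 CPM in cKO. The groups did not overlap, and its log2 change of 0.51 ± 0.11 (SE; edgeR adjusted p = 0.00574) was the smallest of the fibrillar rises. Col5a2 stood at 3.08, 1.98, 2.64 and 2.32 CPM in WT and at 3.88, 3.87, 4.28 and 4.07 CPM in cKO. Its cKO libraries were close together and above all WT libraries (log2 change 0.68 ± 0.14 SE, edgeR adjusted p = 0.00488).

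Col27a1 (chr4:63214009-63334991), a fibrillar collagen best known from cartilage, had the largest difference of all tested collagens and fell. It stood at 34.8, 45.8, 42.6 and 29.4 CPM in WT and at 12.9, 11.6, 10.4 and 8.16 CPM in cKO. The lowest WT library was above the highest cKO library by a wide margin. The log2 change was -1.82 ± 0.17 (SE), with an edgeR adjusted p of 0.000136. In TPM it was the third of the collagens in WT, at 6.72 ± 1.41, and number 13 in cKO, at 2.15 ± 0.26 (SD, n = 4 each). The change remained past the threshold under all 19 alternatives, from -1.93 to -1.28. Of 7 cartilage markers, only Cnmd and Sox9 were tested, and Acan, Matn1 and Matn3 were at 0 in all 8 libraries. Cnmd, which encodes chondromodulin, fell from 0.796 to 0.304 CPM, at an edgeR adjusted p of 0.00681 (log2 change -1.40 ± 0.31 SE). Sox9 did not pass, at a log2 change of 0.40. Hapln1, below the filter and named after its values were seen, had 0, 1, 1 and 0 counts in WT and 4, 15, 2 and 6 counts in cKO, and Comp had 0 to 3 counts per library. The tested or counted markers of this list thus did not share a direction. The part of such transcripts in the fall of Col27a1 was not tested.

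Col5a3, the least widespread type V chain, spread widely within both genotypes and did not pass. It stood at 15.4, 64.1, 68.1 and 65.6 CPM in WT and at 51.0, 61.9, 32.0 and 24.2 CPM in cKO. WT replicate 1 was below all cKO libraries and the other WT libraries were above them, so the WT range encloses that of cKO. The log2 change was -0.33 ± 0.53 (SE; edgeR adjusted p = 0.669), and -0.64 without WT replicate 1 (adjusted p = 0.204). Col11a2, a type XI chain, averaged 2.25 ± 0.19 (WT) and 1.76 ± 0.44 CPM (cKO; SD, n = 4 each; edgeR adjusted p = 0.161). Col24a1, a fibrillar collagen of bone, averaged 0.421 ± 0.145 (WT) and 0.560 ± 0.283 CPM (cKO; edgeR adjusted p = 0.458). The groups overlapped for both. The remaining fibrillar genes were below the filter. Col2a1, the main cartilage collagen, had 0 or 1 count in each library, and Col11a1 had 0 in all 8.

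**Figure D2:**
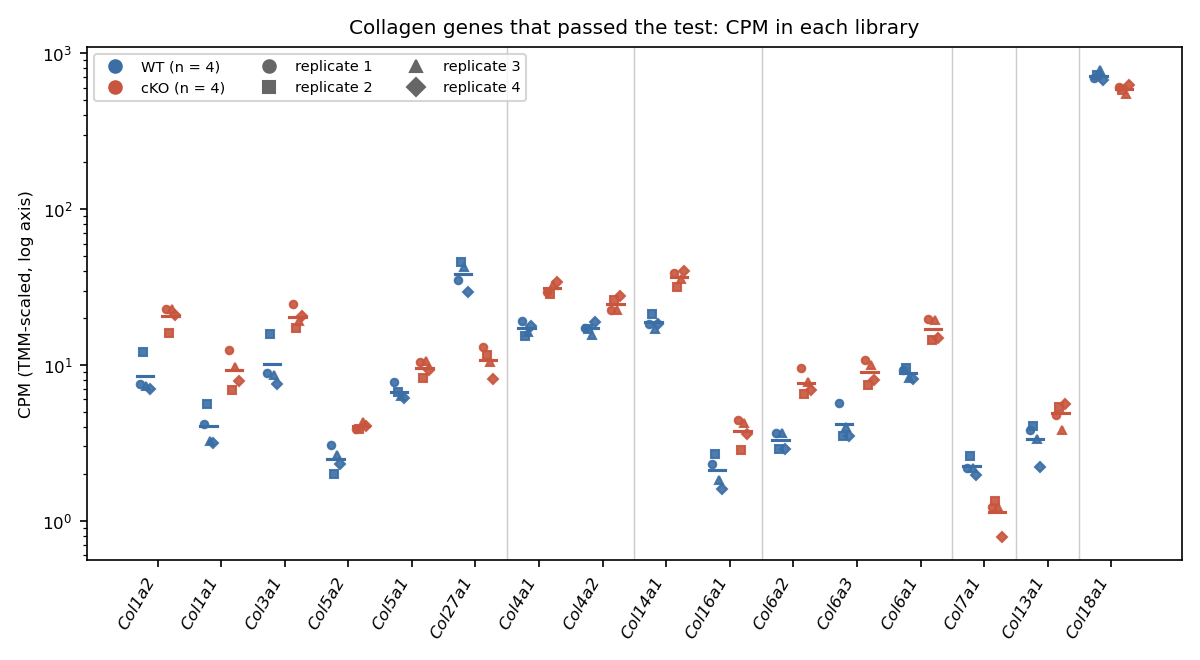
CPM on a log axis in each of the 4 WT and 4 cKO libraries for the 16 collagen genes that passed the test, with group means as bars and replicate numbers as symbols. The groups are apart for every gene except Col13a1, and WT replicate 2 is the highest WT library for Col1a1, Col1a2 and Col3a1.

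Of the 6 type IV genes, which encode the network of basement membranes, 5 were tested. In cKO 2 rose and 3 did not pass, with a median log2 change of 0.58. Col4a1 and Col4a2 encode the chains found in nearly all basement membranes. They lie head to head on chromosome 8 (chr8:11198423-11312889 and chr8:11312805-11449287), with an overlap of 85 bases. Col4a1 stood at 19.1, 15.2, 16.2 and 17.9 CPM in WT and at 29.4, 28.6, 32.8 and 34.1 CPM in cKO. The groups were far apart (1.82-fold, log2 change 0.87 ± 0.09 SE, edgeR adjusted p = 8.55e-05). Col4a2 stood at 17.2, 16.9, 15.5 and 18.9 CPM in WT and at 22.5, 26.1, 22.5 and 27.7 CPM in cKO. It too was higher in every cKO library (log2 change 0.53 ± 0.09 SE, edgeR adjusted p = 0.00187).

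The other type IV chains, best known from kidney, averaged under 2 CPM in both genotypes, and the tested ones did not pass. Col4a4 averaged 0.594 ± 0.042 (WT) and 0.895 ± 0.179 CPM (cKO; log2 change 0.58, edgeR adjusted p = 0.0580). It passed with scaling to library size alone and without cKO replicate 4. Col4a5 averaged 0.970 ± 0.497 (WT) and 1.49 ± 0.24 CPM (cKO; log2 change 0.61, edgeR adjusted p = 0.142). It passed on the TPM scale, where the groups did not overlap, and without WT replicate 3. Col4a3 differed least, with 0.543 ± 0.120 (WT) and 0.589 ± 0.052 CPM (cKO; edgeR adjusted p = 0.733). Col4a6 had 4 to 13 counts per library and was not tested.

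Of the 9 FACIT genes, 5 were tested. In cKO 2 rose and 3 did not pass, with a median log2 change of 0.16. Col14a1 (chr15:55307644-55520803) encodes type XIV collagen, which sits on type I fibrils and regulates their growth. It stood at 18.4, 21.1, 17.0 and 18.4 CPM in WT and at 38.6, 31.6, 35.7 and 39.8 CPM in cKO. The groups were well apart, and the log2 change of 0.96 ± 0.09 (SE) had the smallest edgeR adjusted p of all collagens, 5.02e-05. Col16a1, a minor component of fibril surfaces, stood at 2.33, 2.67, 1.81 and 1.59 CPM in WT and at 4.46, 2.86, 4.21 and 3.61 CPM in cKO. All cKO libraries were above WT in CPM (log2 change 0.85 ± 0.19 SE, edgeR adjusted p = 0.00691). In TPM cKO replicate 2, at 1.44, fell within the WT range of 1.07 to 1.59.

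Col12a1, a FACIT of tendon and dense connective tissue, averaged 1.65 ± 0.29 (WT) and 1.84 ± 0.26 CPM (cKO; edgeR adjusted p = 0.511). Its effective length, the length that RSEM assigns from the mix of transcripts, averaged 2336 ± 839 bases in WT and 3606 ± 576 bases in cKO. With an offset for that length the log2 change turned from 0.16 to -0.47 and still did not pass. Col20a1 averaged 2.77 ± 0.63 (WT) and 2.23 ± 0.67 CPM (cKO; edgeR adjusted p = 0.314). Col9a3, a type IX chain of cartilage, averaged 0.324 ± 0.204 and 0.264 ± 0.090 CPM (edgeR adjusted p = 0.613). Both turned direction on the TPM scale, at log2 changes of up to 0.09 and 0.28. The FACIT genes Col9a1 and Col19a1 had 0 counts in all 8 libraries. Col9a2 and Col22a1 had 0 to 3 counts in each.

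The beaded filament genes had the highest median change among classes with several tested genes. Type VI collagen forms fine filaments that link cells to the matrix around them, and Col6a1, Col6a2 and Col6a3 encode its classical chains. Of 6 genes, 4 were tested, 3 rose in cKO and 1 did not pass, with a median log2 change of 1.03. Col6a1 (chr10:76708792-76726044) stood at 9.30, 9.60, 8.25 and 8.08 CPM in WT and at 19.7, 14.4, 19.3 and 14.9 CPM in cKO. Its cKO libraries were all above WT (log2 change 0.95 ± 0.12 SE, edgeR adjusted p = 0.000268). Col6a2 (chr10:76595756-76623630) stood at 3.65, 2.90, 3.67 and 2.90 CPM in WT and at 9.59, 6.48, 7.79 and 6.88 CPM in cKO. It rose most of the class, by 2.34-fold (log2 change 1.23 ± 0.15 SE, edgeR adjusted p = 0.000218). Col6a3 (chr1:90766860-90844001) stood at 5.67, 3.49, 3.96 and 3.49 CPM in WT and at 10.8, 7.38, 9.97 and 7.97 CPM in cKO. The groups did not overlap for it either (log2 change 1.12 ± 0.18 SE, edgeR adjusted p = 0.00129). For all 3 chains cKO replicates 1 and 3 were the highest libraries. Col6a6, a later described chain, was at 0.314 ± 0.088 (WT) and 0.224 ± 0.156 CPM (cKO; edgeR adjusted p = 0.463). Col6a5 had 2.11 to 22 expected counts per library, and Col6a4 had counts only in cKO replicate 2, where it had 2.

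The other classes hold few genes, and the falls among them were of Col7a1 and Col18a1. Col7a1 (chr9:108953586-108984875) encodes the anchoring fibrils that hold skin to its base. It stood at 2.18, 2.62, 2.18 and 1.97 CPM in WT and at 1.22, 1.34, 1.22 and 0.784 CPM in cKO. All cKO libraries were below all WT libraries (log2 change -0.97 ± 0.18 SE, edgeR adjusted p = 0.00311). Among the 4 transmembrane collagens, which are anchored in the cell surface, 2 were tested. Col13a1, known from cell adhesion sites, stood at 3.79, 4.03, 3.35 and 2.20 CPM in WT and at 4.76, 5.39, 3.80 and 5.62 CPM in cKO. cKO replicate 3 lay within the WT range in CPM, but not in TPM (log2 change 0.55 ± 0.18 SE, edgeR adjusted p = 0.0425). This call was lost, with an adjusted p between 0.0537 and 0.116, without any one of WT replicates 1, 3 and 4 or cKO replicates 1, 2 and 4. With the replicate number as a block its adjusted p was 0.0592. Col23a1 averaged 0.225 ± 0.044 (WT) and 0.168 ± 0.063 CPM (cKO; edgeR adjusted p = 0.429). Col17a1, the hemidesmosome collagen of epithelia, had 1 to 4 counts per library, and Col25a1 had 1 to 14.

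Col18a1 (chr10:77052178-77166530) is the multiplexin whose fragment is endostatin, and it was the most abundant collagen transcript per length. It stood at 690, 730, 777 and 672 CPM in WT and at 605, 580, 547 and 623 CPM in cKO. The groups did not overlap in CPM (log2 change -0.28 ± 0.08 SE, edgeR adjusted p = 0.0166). In TPM they did, with 147 to 166 in WT and 139 to 158 in cKO. Limma on log2(TPM + 1) gave a log2 change of -0.10 and an adjusted p of 0.290. The call was also lost when scaled to library size alone (adjusted p = 0.0854), without WT replicate 3 (0.0522) and without cKO replicate 3 (0.0584). Col15a1, the other multiplexin and a component of vessel basement membranes, averaged 3.04 ± 1.00 (WT) and 3.69 ± 0.85 CPM (cKO) (cKO; edgeR adjusted p = 0.394).

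The network collagens and the genes outside the classes were near or below the limit of the test. Col8a2, a network collagen of the cornea, averaged 0.249 ± 0.188 (WT) and 0.295 ± 0.152 CPM (cKO; edgeR adjusted p = 0.754). Col8a1, its partner chain in vessels, had 4, 8, 5 and 4 counts in WT and 13, 7, 14 and 21 counts in cKO, and was below the filter. Col10a1, the marker of hypertrophic cartilage, had 0 to 3 counts per library. Col28a1, best known around glial cells of peripheral nerve, had 2, 1, 0 and 0 counts in WT and 25, 2, 23 and 14 counts in cKO. It was also below the filter. The WT libraries were at or under 3 counts, as was cKO replicate 2, while the other cKO libraries were above. In the fit without a filter it had an edgeR adjusted p of 0.00172. Col26a1 had 1 count in cKO replicate 1 and 0 elsewhere.

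Length-corrected levels place the genes beside each other. In TPM, Col18a1 led in both genotypes, at 156 ± 9.39 in WT and 145 ± 8.71 in cKO (SD, n = 4 each). The next in WT were Col5a3 at 9.41 ± 4.47, Col27a1 at 6.72 ± 1.41, Col14a1 at 5.74 ± 0.41 and Col4a1 at 4.28 ± 0.52. The ranges of Col5a3, with WT replicate 1 at 2.71, and its neighbours overlapped, as did those of Col27a1 (5.13 to 8.23) and Col14a1 (5.35 to 6.15), so that these places are not fixed. In cKO the next were Col14a1 at 12.0 ± 1.21, Col4a1 at 8.78 ± 1.09, Col5a3 at 8.42 ± 3.23 and Col3a1 at 6.92 ± 1.17. Col5a3, at 4.98 to 12.1, overlapped Col14a1, Col4a1 and Col3a1, so that this order is not fixed by these libraries either. Col1a2 stood at 1.79 ± 0.57 TPM in WT and 5.04 ± 0.84 TPM in cKO. Of the summed TPM of all 44 genes, Col18a1 made up 76.2 ± 1.61% in WT and 66.2 ± 1.59% in cKO.

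**Figure D3:**
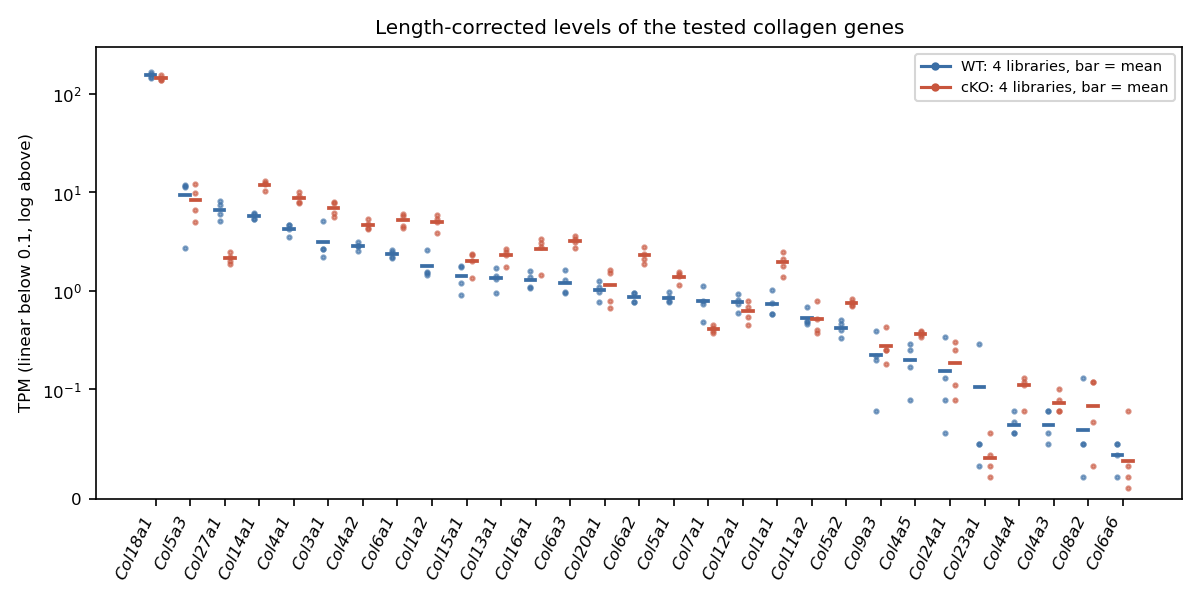
TPM in each library (dots) and group means (bars) for the 29 tested collagen genes, ordered by the WT mean, on an axis that is linear below 0.1 and logarithmic above. Col18a1 leads with means of 156 in WT and 145 in cKO, and Col27a1 drops from the third place in WT to number 13 in cKO.

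Summed TPM of all collagens was 191, 216, 217 and 193 in WT and 226, 208, 213 and 232 in cKO. The groups overlapped, and the log2 ratio of the means was 0.10, without a test. Summed CPM gave -0.12. It weights long transcripts and, unlike TPM, is TMM-scaled. Over all tested genes the median log2 change was -0.01 in the main fit and 0.15 in limma on log2(TPM + 0.1). The part of length and of scaling in the turn was not tested. Without Col18a1, a choice made after the data were seen, the sums were 48.6 ± 5.97 TPM in WT and 74.1 ± 4.77 TPM in cKO, a log2 ratio of 0.61. That ratio was 0.32 in summed CPM. Basement membrane collagens summed to 7.50 ± 0.50 TPM in WT and 14.1 ± 1.49 TPM in cKO. FACIT collagens summed to 9.08 ± 0.85 and 16.8 ± 2.31 TPM. Beaded filament collagens summed to 4.51 ± 0.53 and 10.8 ± 1.48 TPM. In these 3 classes every cKO library was above every WT library. Fibrillar collagens summed to 23.8 ± 6.03 TPM in WT and 27.3 ± 2.93 TPM in cKO, with groups that overlapped. Their log2 ratio was 0.20, and 0.05 without WT replicate 1, and it turned to -0.08 in summed CPM.

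Ratios between chains within a library do not depend on how libraries are scaled. For 9 pairs with values in all 8 libraries, TPM ratios were tested by exact two-sided permutation of the 70 possible assignments, with p values adjusted over the 9. The smallest p this design allows is 0.0286. After adjustment over the 9, a pair with fully separated groups could pass 0.05 only if most other pairs separated too. The adjusted p was 0.257 or more for all 9. As a single pair could hardly pass, no conclusion on the ratios is drawn from this. Col1a1 stood to Col1a2 as 0.416 ± 0.048 in WT and 0.385 ± 0.053 in cKO (exact permutation p = 0.371). Col6a1 stood to Col6a2 as 2.76 ± 0.45 and 2.27 ± 0.20 (exact permutation p = 0.0571). Col4a1 stood to Col4a2 as 1.51 ± 0.27 and 1.86 ± 0.17 (exact permutation p = 0.0857). Col15a1 stood to Col18a1 as 0.00905 ± 0.00267 and 0.0139 ± 0.0031 (exact permutation p = 0.0857). The ratio of Col5a2 to Col3a1 was 0.0647 in WT replicate 2 and 0.173 to 0.192 in the other WT libraries.

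**Figure D4:**
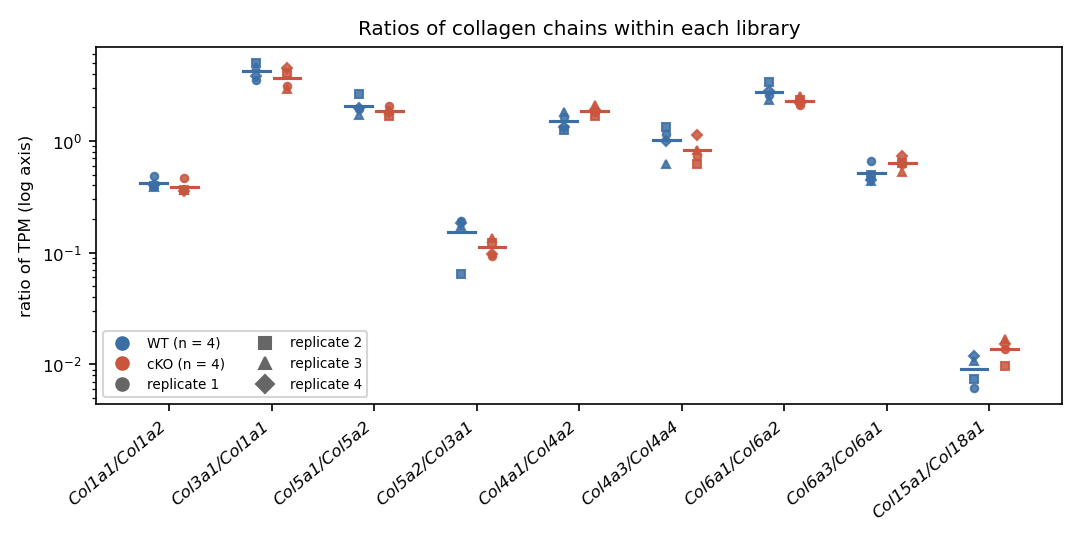
Ratio of the TPM of 2 collagen chains (log axis) within each of the 4 WT and 4 cKO libraries for 9 pairs, with group means as bars. The groups overlap for all pairs, and the ratio of Col5a2 to Col3a1 in WT replicate 2, at 0.0647, lies below the other libraries.

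Genes that handle collagen were read from 5 lists. Of all tested genes, 15.3% were called higher and 15.1% lower, and list counts near these shares do not set a list apart. Among enzymes and chaperones of procollagen in the endoplasmic reticulum, all 20 were tested, 9 rose, 3 fell and 8 did not pass (median log2 change 0.20). Only 5 rose with the length offset, or without any one of WT replicates 1 and 2 and cKO replicates 3 and 4. Serpinh1, the collagen chaperone HSP47, rose from 5.20 to 9.16 CPM (log2 change 0.82, edgeR adjusted p = 0.00174). Ppib, a prolyl isomerase that also serves other secreted proteins, fell from 260 to 182 CPM (log2 change -0.52, edgeR adjusted p = 0.00309). P4ha3, a prolyl hydroxylase subunit, had 0, 1, 0 and 1 counts in WT and 11, 18, 12 and 17 counts in cKO. It is counted among the 9 rises, but it passed the filter through its cKO libraries alone. P3h4, a partner in collagen lysine modification, rose from 0.663 to 1.54 CPM (edgeR adjusted p = 0.00396). Of 15 genes of processing and crosslinking, 12 were tested, 8 rose, 1 fell and 3 did not pass (median 0.69). Among these rises, Lox too would not have passed the filter without its cKO libraries. It had 6, 12, 5 and 5 counts in WT and 14, 26, 28 and 27 counts in cKO, and the groups overlapped in CPM. Adamts2, which trims the amino-terminal propeptide of fibrillar procollagens, rose from 3.10 to 6.53 CPM (log2 change 1.08, edgeR adjusted p = 0.000214). Loxl2, a crosslinking oxidase, rose from 1.71 to 4.27 CPM (log2 change 1.32). Sparc, a collagen-binding matrix protein, rose from 32.8 to 57.7 CPM. The 1 fall was of Bmp1, which trims the carboxy-terminal propeptide, from 172 to 120 CPM (log2 change -0.52, edgeR adjusted p = 0.000862).

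Of 12 collagen receptors and uptake genes, 10 were tested, and 6 rose while 4 did not pass (median 0.51). Ddr1, a receptor kinase for collagen, rose from 1.30 to 4.26 CPM, Ddr2 from 3.32 to 5.97 CPM and the integrin chain Itga1 from 16.9 to 24.8 CPM. Of 9 degradation genes, 6 were tested, and 4 rose while 2 did not pass (median 1.06). They were the gelatinase gene Mmp2 (2.65 to 6.76 CPM), the protease inhibitors Timp2 (9.10 to 19.5 CPM) and Timp3 (8.91 to 26.5 CPM), and the cathepsin gene Ctsk (0.678 to 1.39 CPM). The groups overlapped for Ctsk, and its call was lost in 8 of 19 alternatives (adjusted p up to 0.106), among them limma-voom and leaving out any one of WT replicates 2, 3 and 4 or cKO replicates 1, 3 and 4. The rises thus include both a collagen-cleaving enzyme and inhibitors of such enzymes. Of 15 laminins, nidogens and other partners of type IV collagen, all were tested, 6 rose, 2 fell and 7 did not pass (median 0.38). Nid1, which links laminin to type IV collagen, rose from 4.76 to 12.1 CPM, and Lamb1 from 3.74 to 8.72 CPM. Lamc3, a laminin chain, fell from 2.84 to 1.20 CPM (log2 change -1.24, edgeR adjusted p = 0.000386).

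Markers of cells that could supply collagen transcripts were counted in the same way. The shares over all tested genes, 15.3% higher and 15.1% lower, stand beside these lists too. Single calls in a short list are near those shares. Of 12 stellate cell markers all were tested and 11 rose, with a median log2 change of 0.90, beside 0.51 for the collagens. Lrat, the enzyme that stores retinol in stellate cells, stood at 4.92, 4.58, 4.67 and 4.45 CPM in WT and at 13.2, 11.8, 12.5 and 13.6 CPM in cKO. The groups were far apart. Dcn, a matrix proteoglycan on the same list, rose from 65.2 to 194 CPM, and the receptor gene Pdgfra from 3.81 to 11.8 CPM. Ngfr was the member that did not pass.

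Of 10 portal fibroblast markers, 8 were tested and 5 rose (median 0.73, summed level 35.0 to 55.7 CPM in WT and 52.7 to 69.2 CPM in cKO). Among them were Eln, the elastin gene, from 3.38 to 6.21 CPM, and Cd34, from 1.33 to 2.49 CPM. Of 8 myofibroblast and smooth muscle markers, 5 were tested and 2 rose (median 0.34, summed 8.22 to 14.3 CPM and 14.3 to 17.3 CPM). These were Postn, from 4.55 to 8.22 CPM, and Tnc, from 0.338 to 0.821 CPM. The groups overlapped for Tnc, and its call was lost in limma on log2(TPM + 1) (adjusted p = 0.0595). Tagln averaged 3.04 and 3.86 CPM and did not pass. Acta2 averaged 1.44 (WT) and 0.953 CPM (cKO), at a log2 change of -0.61. Myh11 averaged 1.72 (WT) and 1.10 CPM (cKO), at -0.65. Neither Acta2 nor Myh11 passed, and the groups overlapped for both, so the tested markers of this list did not share a direction. Of 8 mesothelial markers, 5 were tested and 1, Wt1, rose (median 0.55, summed 2.45 to 4.45 CPM and 2.58 to 8.26 CPM). Msln stood at 3.16 CPM in cKO replicate 2 and at 0.0765 to 0.720 CPM in the other cKO libraries. Msln and Upk3b, at log2 changes of -0.02 and -0.30, did not pass. Gpm6a and Krt19, at 1.01 and 0.55, did not pass either. The Wt1 call was lost without WT replicate 3, cKO replicate 1 or cKO replicate 3 (adjusted p up to 0.0617). Of 10 sinusoidal endothelial markers, all were tested and 1, Mrc1, rose (median 0.32, summed 169 to 311 CPM and 229 to 345 CPM). The Mrc1 call was lost without any one of WT replicates 1, 3 and 4 or cKO replicates 1, 2 and 4 (adjusted p up to 0.0848), and the count of rises in the list ran from 0 to 2 over the alternatives. Of 8 cholangiocyte markers, 7 were tested, 3 rose and 1 fell (median 0.55, summed 46.7 to 61.9 CPM and 42.3 to 49.8 CPM). Tspan8 rose from 0.375 to 2.37 CPM and Epcam from 1.10 to 3.13 CPM, and Spp1 fell from 34.9 to 21.8 CPM. Of 8 macrophage markers, all were tested and 1, Marco, rose (median -0.05, summed 267 to 406 CPM and 219 to 358 CPM). The Marco call was lost without WT replicate 3 (adjusted p = 0.0504). Of 10 hepatocyte markers, all were tested, 5 fell and 1 rose (median -0.20, summed 90027 to 117452 CPM and 100438 to 112629 CPM). The count of falls ran from 1 to 5 over the alternatives and moved by over 1.5 times in 8 of 19, among them library size alone, both TPM fits and leaving out WT replicate 3 or cKO replicate 1, 2 or 3. The rise of Cps1 was lost without WT replicate 3. The lists share Sox9, Krt19, Mrc1 and Timp1 with each other or with the pathway lists. Their part in the collagen differences was not tested.

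**Figure D5:**
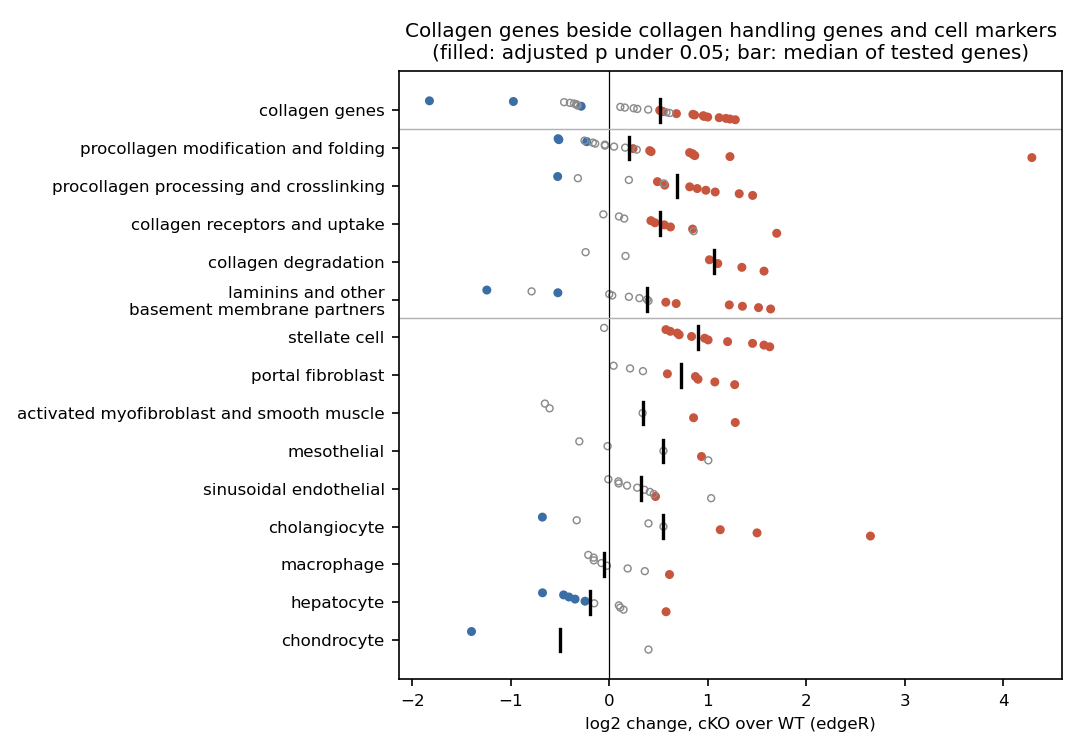
Log2 change in cKO over WT for the tested genes of the collagens, 5 lists of collagen handling genes and 9 lists of cell type markers, filled where the edgeR adjusted p was under 0.05, with the median of each list as a bar. The stellate cell list has 11 filled points right of 0 and a median of 0.90, and the point at 4.29 is P4ha3, whose fitted change rests on 0 or 1 counts per WT library.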

How the data were processed

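Liver RNA of 8 samples was sequenced after Trizol extraction with an Illumina TruSeq RNA kit, per the labels' protocols. Per the submitters' processing notes, the tools were STAR 2.5.1 and RSEM with the mm10 genome. For RSEM's version, the annotation and strandedness the entry is: not given in the sources used here. Overlapping and antisense genes can therefore not be told apart with certainty. Per the file headers, the authors deposited RSEM expected counts, which are estimates with fractions where a read was shared among genes. They also deposited effective length in bases, TPM (length-corrected and scaled to 1 total per library) and FPKM, which was not used here.

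Expected counts were rounded. Genes were kept with filterByExpr (at least 10 counts, at least 15 in total); 15562 remained. After TMM scaling, genotypes were compared with edgeR 4.0.16 in R 4.3.3 (estimateDisp, robust glmQLFit, glmQLFTest, Benjamini-Hochberg adjustment over all genes tested, threshold 0.05). SE was derived from the F statistic. Filtering on low values keeps a gene that is high in 1 genotype only. Pairs of libraries differed beyond counting noise (chi-square over degrees of freedom at least 28.4), so each counted once.

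The members, classes and lists were chosen with earlier results of these data known. All tested members were named. Of each list, examples were taken from the 4 members with the smallest p and the opposite member of smallest p that passed. The names Hapln1, Comp, Ngfr, Lox, Ecm1, Acta2 and Msln were added once their values had been seen. Gene positions and promoters came from RefSeq GRCm38.p6, the assembly called mm10. Protein sequences and the reference genome of another build were not used here. Alternatives were DESeq2-type factors, library size alone or less its 20 most abundant genes, testing without a filter, requiring 1 CPM in 4 libraries, DESeq2 1.42.0, limma-voom (limma 3.58.1), limma on log2(TPM + 1) and log2(TPM + 0.1), effective length as an offset, blocking by replicate number, and leaving out each library. The test was tested on simulated data. Plots used Python 3.11.15 and matplotlib 3.10.9.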

Additional observations from a re-analysis of the deposited data

Results flagged for a closer look

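In 6 of 76 groups of 4 values, 1 sample was far from the other 3 (gap over range past Dixon's critical value for 4 samples), which chance gives in about 1 group in 20. Col5a3 was at 15.4 CPM in WT replicate 1 and at 64.1 to 68.1 CPM in the other WT libraries. Col3a1 was at 15.7 CPM in WT replicate 2 and at 7.54 to 8.81 CPM in the others. Col1a2 was at 12.2 CPM in the same library and at 6.95 to 7.59 CPM in the others. The ratio of Col5a2 to Col3a1 in TPM was 0.0647 in that library and 0.173 to 0.192 in the others. Col6a6 was at 0.184 CPM in WT replicate 1 and at 0.344 to 0.375 CPM in the others. The ratio of Col1a1 to Col1a2 in TPM was 0.466 in cKO replicate 1 and 0.355 to 0.361 in the other cKO libraries.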

How the results depend on the processing

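Of the 16 calls, 14 held under all 19 alternatives, and the exceptions were Col13a1 and Col18a1. The number of collagens higher in cKO was 13 and ran from 12 to 14 when each library was left out, and the number lower was 3 and ran from 2 to 3. Col28a1 was called where no filter was applied, and without any one of the WT libraries or cKO replicate 2, where the filter kept it. Over all genes, 2386 were higher and 2352 lower. Scaling to library size alone gave 3621 and 1335, and leaving the 20 most abundant genes out of the library size gave 1442 lower. Limma on log2(TPM + 1) gave 3848 and 875, and on log2(TPM + 0.1) 3847 and 878. Leaving out a library gave 1752 to 2541 higher and 1629 to 2509 lower. The median of all genes shifted to 0.10 with library size alone and to 0.15 on log2(TPM + 0.1). Of 7 marker genes lower, 3 were called in both TPM fits and 4 to 7 when a library was left out. Summed CPM turned the log2 ratio of all collagens from 0.10 to -0.12 and that of the fibrillar class from 0.20 to -0.081. Some uncalled genes turned direction. In the fits on log2(TPM + 1) and log2(TPM + 0.1), Col20a1 was at 0.066 and 0.087, Col9a3 at 0.066 and 0.28 and Col12a1 at -0.13 and -0.29. With the length offset Col9a3 was at 0.055 and Col12a1 at -0.47. Leaving out a library moved the Col8a2 log2 change from -0.045 (without WT replicate 2) to 0.85, and the Upk3b log2 change, of a mesothelial marker, from -1.02 to 0.10 (without cKO replicate 1). Where the fit rests on fewer samples that is part of the setting, and otherwise the cause was not tested.

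The labels number the replicates in both genotypes and do not say what the numbers stand for. Same-numbered samples correlated by 0.04 to 0.06 in their deviations from the group means. Of the WT libraries, 3 of 4 correlated best with their own number. Whether same-numbered samples share more than a number cannot be told from these values. With the replicate number as a block 12 collagens were higher and 3 lower, Col13a1 being the call that was lost, and 2525 and 2416 of all genes were called. Collagens below the filter were not tested in the main fit, and for most a difference may not have been detectable at this depth. Without a filter Col28a1 was called, at an edgeR adjusted p of 0.00172. Col8a1 was called only without cKO replicate 2, at an edgeR adjusted p of 0.0358.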

Other observations

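Several collagen genes are neighbours in the genome. Col3a1 and Col5a2 lie 24.6 kb apart on chromosome 1 and had log2 changes of 1.00 and 0.68. On chromosome 10, Col6a2 and Col6a1 lie 85.2 kb apart with log2 changes of 1.23 and 0.95, and Col18a1, 326 kb from Col6a1, had -0.28. Col4a1 and Col4a2, which share 85 bases at their starts, had 0.87 and 0.53. Col4a4 and Col4a3, which share 114 bases, had 0.58 and 0.11, and neither passed.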
